A study of Mus musculus with 8 samples.

Results

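Mature miRNA counts of mouse embryonic stem cells that lack Ago2 and carry induced, ectopic AGO1, another Argonaute, were set against those of Ago2 knockout lines without the AGO1 construct. The comparison takes 4 of 8 small RNA libraries: induced AGO1 line A and B against knockout lines 1 and 2. The deposited table lists 1915 mature miRNAs. Of these, 901 had no count in any of the 8 libraries, 1029 had none in the 4 libraries compared, and 475 passed the abundance filter and were tested. All cells derive from E14, a pluripotent line of 129/Ola background, and grew on gelatine in 15% serum with LIF at 100 U/mL. The knockout group holds 1 library each of 2 separate Ago2 knockout lines. The AGO1 group is 1 line, which the labels trace to knockout line 1. It carries inducible ectopic AGO1 in the Ago2 knockout background, was kept in puromycin at 2 µg/mL, and received doxycycline at 1 µg/mL. How long the cells were induced and which promoter drives AGO1 was not given in the sources used here. A further 2 pairs of libraries are given beside the values as references: the same AGO1 line without doxycycline, and wild type E14 cells with Ago2 intact. The knockout lines are described with neither drug, so construct, puromycin and doxycycline all separate the groups compared, and their parts cannot be told apart. Whether libraries A and B came from separate cultures is not stated, so p-values measure only the spread between these samples, which may be technical.

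A miRNA is cut from a hairpin precursor into a duplex of a 5p and a 3p strand, and an Argonaute protein takes up 1 strand and holds it on target RNAs. The seed, bases 2 to 8 from the 5′ end, makes most of the pairing with targets. A miRNA strand outside Argonaute is usually degraded, so the supply of Argonaute is known to affect how much mature miRNA a cell keeps. The Argonautes of the mouse bind largely the same miRNAs, and AGO2 is the one known for strong slicing of paired targets. Imprinted clusters such as Dlk1-Dio3, and the miR-290-295 cluster, supply much of the miRNA of mouse embryonic stem cells.

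Totals were 359099 and 163467 counts in knockout lines 1 and 2, and 1326638 and 1117435 in induced libraries A and B. A count of 0 allows up to 3 counts, which is 7.48 and 15.1 CPM in the knockout lines and 2.57 and 2.99 CPM in the induced libraries, for counting error only. CPM is the count scaled per 1e6 of the library total times edgeR's TMM factor, so levels and changes are relative to the other miRNAs of a library. Among 385 miRNAs with a mean of at least 20 CPM, the median absolute log2 difference within a group was 0.49 between the knockout lines and 0.20 between the induced libraries. At least 2-fold differences within the group numbered 87 and 5. Genotype and induction rest on the labels, since mRNA and protein of the Argonautes were not analysed here. The miR-290-295 cluster, which marks pluripotent cells, held 27.4% to 30.8% of the counts of the 4 libraries.

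Sequences of the miRNAs on which the results turn are printed first, 5′ to 3′, from RefSeq on GRCm38.p6, with the seed in capitals. The first set, miR-130 with miR-301, has a common seed, and miR-301a-3p had one of the largest rises.
miR-301a-3p: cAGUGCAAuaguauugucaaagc
miR-130a-3p: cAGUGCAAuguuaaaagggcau
miR-130b-3p: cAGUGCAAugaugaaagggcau

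miR-103-3p and miR-107-3p, which lie in introns of pantothenate kinase genes, have 1 base difference in 23, G22C from miR-103-3p to miR-107-3p with positions counted from the 5′ end, so reads near their ends decide which of them is counted.
miR-103-3p: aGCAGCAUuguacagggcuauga
miR-107-3p: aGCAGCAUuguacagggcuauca

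The let-7 members share a seed as well. let-7e-5p, let-7c-5p and let-7f-5p each have 1 base difference in 22 from let-7a-5p (U9G, A19G and G12A, in that order), and how the authors treated mismatches and reads with several matches is not given in the sources used here.
let-7e-5p: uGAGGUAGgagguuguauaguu
let-7a-5p: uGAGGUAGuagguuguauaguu
let-7c-5p: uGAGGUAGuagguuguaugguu
let-7f-5p: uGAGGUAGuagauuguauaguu

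Outside seed families, the next set shows large rises from 2 imprinted regions. miR-298-5p comes from the region of Gnas on chromosome 2, and the others from the Dlk1-Dio3 region on chromosome 12.
miR-298-5p: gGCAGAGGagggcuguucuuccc
miR-431-5p: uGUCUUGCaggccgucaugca
miR-433-3p: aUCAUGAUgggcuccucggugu
miR-666-5p: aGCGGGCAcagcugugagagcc
miR-410-3p: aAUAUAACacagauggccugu
miR-412-5p: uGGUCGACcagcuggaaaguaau

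Among the falls, 3 5p strands of well-known hairpins are shown; miR-25-5p and miR-27b-5p are the rarer arm in wild type, and miR-92a-1-5p was not paired.
miR-92a-1-5p: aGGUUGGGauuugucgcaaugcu
miR-25-5p: aGGCGGAGacuugggcaauugc
miR-27b-5p: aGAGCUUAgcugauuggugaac

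In GRCm38.p6 coordinates, miR-301a-3p (chr11:87113054-87113076, plus strand) lies in an intron of Ska2 on the same strand. miR-107-3p (chr19:34820700-34820722, minus strand) lies in an intron of Pank1, and miR-103-3p has copies in introns of Pank3 (chr11:35782447-35782469, plus strand) and Pank2 (chr2:131288103-131288125, plus strand). let-7e-5p (chr17:17830366-17830387, plus strand) lies in an intron of Spaca6. No other annotated gene overlaps miR-298-5p (chr2:174267553-174267575, minus strand) or miR-666-5p (chr12:109717103-109717124, plus strand). miR-431-5p (chr12:109590459-109590479, plus strand) and miR-433-3p (chr12:109591781-109591802, plus strand) lie opposite an exon of Rtl1. miR-410-3p (chr12:109743764-109743784, plus strand) lies in an exon and miR-412-5p (chr12:109743303-109743325, plus strand) in an intron of Mirg. miR-92a-1-5p (chr14:115044437-115044459, plus strand) lies in an exon of Mir17hg, miR-25-5p (chr5:138165370-138165391, minus strand) in an exon of Mcm7, and miR-27b-5p (chr13:63300718-63300739, plus strand) in an exon of 2010111I01Rik. A place counts as exon here where any annotated transcript of the gene has an exon over it, so it can be intronic in other transcripts.

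The comparison asks which miRNAs differ between the induced AGO1 line and the knockout lines without the construct. Below, "after induction" names the induced libraries, and rises and falls are counted from those knockout lines, not from the uninduced line. By edgeR's quasi-likelihood test with an adjusted p (Benjamini-Hochberg) of 0.05 as the threshold, 142 of 475 (29.9%) passed. The induced line was higher in 91 (19.2%) and lower in 51 (10.7%). The rises were larger: the median log2 fold change was 2.07 among the 91 and -1.49 among the 51, and 76 and 42 of them were at least 2-fold. The 142 all had groups that did not overlap, which was also so for 317 (66.7%) of all miRNAs tested. DESeq2 called 136, with 77 higher and 59 lower. The split depends on the scaling. With library totals in place of TMM factors, the median log2 fold change of everything tested went from 0.03 to -0.37, and 72 were higher and 117 lower of 189 called. Leaving out induced library A left 69 higher and 17 lower, and leaving out B left 59 and 11. Across 15 other settings, 53 of the 91 rises and 7 of the 51 falls were called in each setting that gave a value. Beside single miRNAs, "the 2 groups alone" is a fit on the 4 compared libraries, and "thinned" a fit with every library thinned to the smallest total.

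**Figure D1:**
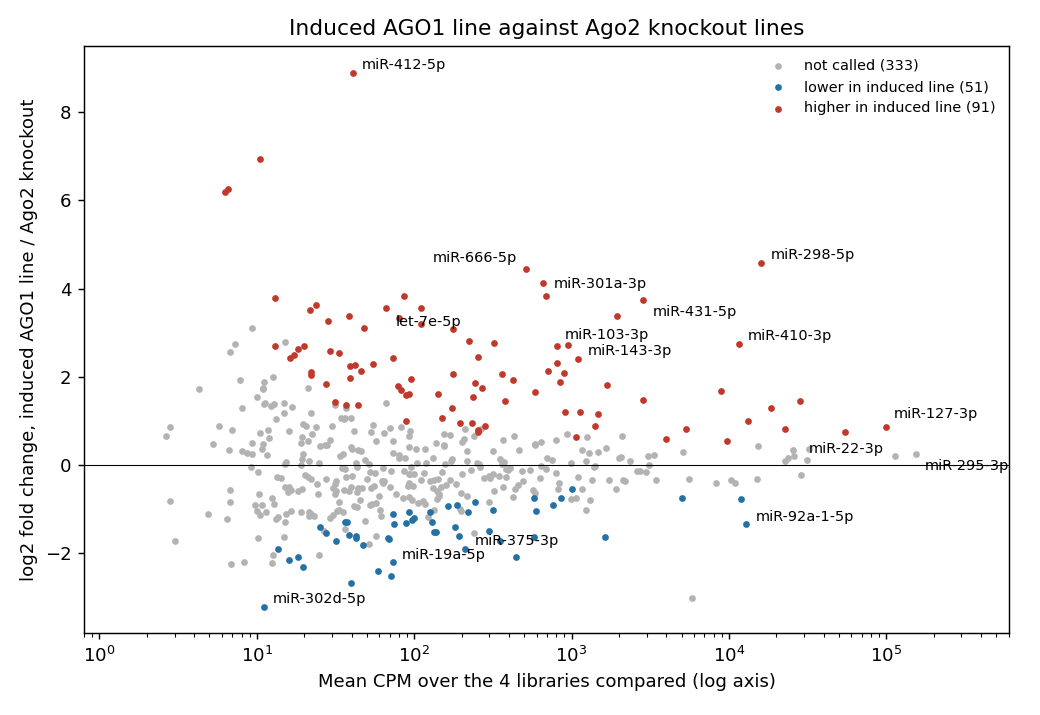
Each point is 1 of the 475 tested miRNAs, with the mean CPM over the 4 libraries on a log axis and the log2 fold change of the induced AGO1 line over the Ago2 knockout lines (edgeR) on the vertical axis. The 91 called higher (red) reach larger fold changes than the 51 called lower (blue), and the fold change of miR-412-5p, which had no count in either knockout line, depends on the fit.

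The same AGO1 line without doxycycline had 0 calls (0%) against the same knockout lines by edgeR, with a smallest adjusted p of 0.134. At an unadjusted p under 0.05 there were 72, and DESeq2 called 15. The count was 61 without knockout line 1 and 33 without knockout line 2, where the remaining line has no replicate and is assumed to vary like the other groups. Doxycycline within the line gave 137 calls (28.8%), 100 higher and 37 lower, or 83 and 64 with library totals alone, and 57 to 78 calls when any 1 of its 4 libraries was left out. Set against wild type, the induced line differed in 185 (38.9%), 91 higher and 94 lower, or 75 to 105 in all without any 1 of the 4. These comparisons share libraries with the one against the knockout, so their values are given side by side and not as separate evidence.

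miR-298-5p, from an imprinted locus, was among the largest rises. It stood at 1806 and 755 CPM in knockout lines 1 and 2 and at 29924 and 31986 CPM in induced libraries A and B. Without doxycycline the line had 2063 and 1934 CPM, and wild type 15422 and 13677 CPM. Both induced libraries were thus above every other library, with a log2 fold change of 4.59 ± 0.35 over the knockout (log2 values are given ± SE; edgeR adjusted p = 1.01e-05) and of 1.09 ± 0.31 over wild type (adjusted p = 0.0197). Of the 3 tested products of miR-296 and miR-298, it was the one that rose, and without knockout line 1 all 3 did.

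For miR-301a-3p the induced level stayed under wild type. It was at 67.4 and 75.5 CPM in the knockout lines, 74.5 and 82.7 CPM in the uninduced line and 1319.8 and 1158 CPM after induction. Wild type held 3920.3 and 3638 CPM. The induced libraries overlapped neither group: they were above the knockout lines by 4.13 ± 0.22 (edgeR adjusted p = 9.18e-07) and below wild type, with a log2 fold change of -1.61 ± 0.18 (adjusted p = 0.000191). miR-301b-3p, of the same family, had 22.5 and 20.1 CPM in the knockout lines, 196 and 201 CPM in the induced libraries and 963 and 898 CPM in wild type, in the same order. Of the family's 8 tested products, 5 rose and 0 fell, with a median log2 fold change of 1.65 beside 0.03 over all miRNAs tested; 3 rose without induced library A or thinned. The abundant member miR-130a-3p moved least of the 5, from 3485 and 2837 to 4794 and 4765 CPM (0.60 ± 0.18, edgeR adjusted p = 0.0311). That call was lost without knockout line 2 (0.44, adjusted p = 0.130), without either uninduced library (0.0835 without A, 0.0777 without B), without induced A (0.169) or B (0.178), with library totals alone (0.21, adjusted p = 0.247) and with the 2 groups alone (0.0788). miR-130b-3p, with the same seed, was not called. With library totals, 4 of the family's 8 products were higher and 1 lower, and over all tested 19.2% were called higher in the main fit. The family held 0.895% and 0.774% of all counts in the knockout lines and 0.859% and 0.855% in the induced libraries. Its summed level was 8021 and 6369 CPM in the knockout lines and 9746 and 9524 CPM in the induced libraries.

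miR-103-3p rose from 252 and 176 CPM to 1389 and 1434 CPM (2.70 ± 0.22, edgeR adjusted p = 1.09e-05). Wild type had 3609 and 3288 CPM, above both induced libraries. miR-107-3p, its near-identical relative, rose from 24.9 and 20.1 to 131 and 119 CPM (2.42 ± 0.40, adjusted p = 0.00138). miR-143-3p, the 1 riser of 7 tested fibroblast markers (2 fell, list median -0.25), stood at 352 and 347 CPM in the knockout lines and 1942 and 1781 CPM in the induced libraries (2.41 ± 0.19, adjusted p = 1.09e-05), against 3142 and 3689 CPM in wild type. In all 3 the knockout lines, the induced libraries and wild type form separate levels in that order, and the uninduced line lay near or below the knockout, at 225 and 222 CPM for miR-103-3p. miR-148 and miR-152 are related too, and 2 of 6 products rose and 0 fell (median 0.92, or 1.55 without knockout line 2), beside 19.2% called higher over all tested. With library totals, DESeq2 size factors or the DESeq2 test, 1 was lower. The family's summed level did not rise: it was 11002 and 10282 CPM in the knockout lines and 8784 and 8989 CPM in the induced libraries. Both arms of miR-148b rose: miR-148b-3p went from 97.3 and 146 to 309 and 388 CPM (1.55 ± 0.27, edgeR adjusted p = 0.00169) and miR-148b-5p from 94.8 and 156 to 443 and 379 CPM.

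Of 11 tested members of the let-7 and miR-98 family, which promotes differentiation and is kept low in pluripotent cells, 4 rose and 0 fell, and 2 rose without either induced library. The median was 0.40, or 0.03 with library totals, 1.43 without knockout line 1 and 1.03 thinned, where 7 were tested. let-7e-5p rose from 7.48 and 15.1 CPM, 3 counts in each knockout line, to 112 and 132 CPM (3.56 ± 0.43, edgeR adjusted p = 0.000173), and wild type was at 113 and 119 CPM, between the induced values. let-7a-5p rose from 42.4 and 50.3 to 147 and 134 CPM (1.62 ± 0.33, adjusted p = 0.00487). let-7c-5p rose by 1.29 ± 0.32, a call lost without induced A (adjusted p = 0.0836) or B (0.0564) and thinned (0.0714). let-7f-5p, the family's most abundant member, rose by 0.90 ± 0.28 (adjusted p = 0.0345), and its call was lost without wild type A (0.0511), knockout line 2 (0.117), either uninduced library (0.0696 and 0.0663) or either induced library (0.137 and 0.141), with library totals (0.118) and with the 2 groups alone (0.106). In the group of miR-99, miR-100 and miR-125, 2 of 7 rose, both arms of miR-99b, whose hairpin sits beside let-7e in Spaca6. Beside the counts of both lists, 19.2% were called higher over all tested. miR-99b-5p went from 669 and 820.0 to 2658 and 2585 CPM (1.82 ± 0.19, adjusted p = 5.00e-05) and miR-99b-3p from 24.9 and 50.3 to 131 and 112 CPM. The third product of that hairpin cluster, miR-125a-5p, stood at 4236 and 4905 CPM in the knockout lines and 6264 and 4988 CPM in the induced libraries and was not called (0.30 ± 0.19, adjusted p = 0.264).

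**Figure D2:**
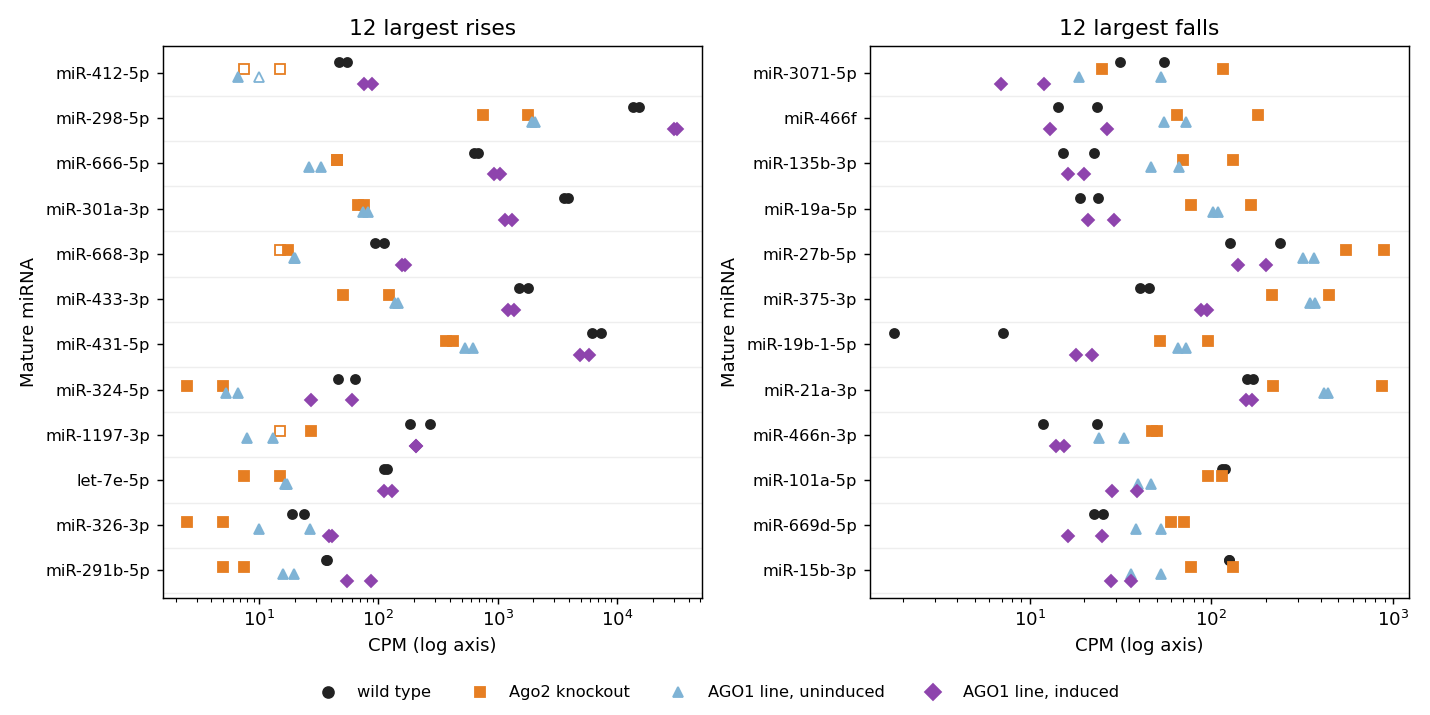
CPM of every library on a log axis for the 12 largest rises (left) and the 12 largest falls (right) by the fixed rule, with 2 libraries per group; an open marker is a count of 0, drawn at the level of 3 counts. By that rule, only miRNAs whose induced (purple diamonds) and knockout (orange squares) values do not overlap are drawn. The uninduced line (blue triangles) stayed near the knockout for miR-301a-3p, at 74.5 and 82.7 CPM against 1320 and 1158 CPM in the induced libraries.

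The Dlk1-Dio3 imprinted cluster, a maternally expressed array of miRNA hairpins on chromosome 12, gave 41 of the 91 rises. Of its 79 tested members (of 112 listed), 41 rose and 4 fell, beside 19.2% called higher and 10.7% lower over all tested. The median log2 fold change was 1.28, the same with its 2 members without a knockout count placed at their lower bound. With library totals alone 32 were higher and 7 lower (median 0.90), and thinned 27 and 2. The list held 21.6% and 17.1% of all counts in knockout lines 1 and 2, and 27.2% and 28.7% in induced libraries A and B. The uninduced line held 23.2% and 24.6% and wild type 23.9% and 24.2%, so the induced libraries had the highest shares of the 8. In the knockout lines miR-431-5p stood at 422 and 372 CPM, and in the induced libraries at 4870.3 and 5801 CPM (3.74 ± 0.21, edgeR adjusted p = 9.18e-07). Wild type, at 7415 and 6204 CPM, was above the induced values by less than the test could call (-0.35 ± 0.19, adjusted p = 0.154). miR-433-3p rose from 122 and 50.3 to 1233 and 1368 CPM (3.83 ± 0.33, adjusted p = 1.50e-05), with wild type at 1792 and 1506 CPM. miR-666-5p rose from 44.9 and 45.3 to 927 and 1044 CPM (4.45 ± 0.26, adjusted p = 9.18e-07), past wild type at 634 and 680.0 CPM (0.59 ± 0.20, adjusted p = 0.0388).

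miR-410-3p, near the far end of the cluster, went from 3443 and 2545 CPM to 18629 and 21573 CPM (2.75 ± 0.20, edgeR adjusted p = 5.78e-06). Neither knockout line had a count of miR-412-5p, against 103 and 76 in the induced libraries, at least 16.5-fold higher with 3 counts, summed over the knockout group, as the floor. miR-668-3p stood at 17.5 and 0 CPM in the knockout lines and at 158 and 167 CPM after induction, and miR-1197-3p went from 27.4 and 0 to 206 and 205 CPM, so knockout line 2 had no count of either. miR-380-5p, also without a knockout count, was at least 2.58-fold higher, and its call was lost with library totals (0.0636) and without any 1 library but wild type B and knockout line 2 (adjusted p from 0.0519 to 0.153). The cluster's most abundant product, miR-127-3p, changed less: from 84718 and 57494 to 124499 and 134214 CPM (0.86 ± 0.19, adjusted p = 0.00650), a call lost without induced library B (0.78, adjusted p = 0.0516). Its uninduced values were 93264 and 116441 CPM, both below the induced libraries. miR-541-5p rose from 18463 and 11565 to 42594 and 39992 CPM (1.46 ± 0.21, adjusted p = 0.000626). miR-411-5p overlapped between the knockout lines, at 33239.7 and 26737 CPM, and the induced libraries, at 34413 and 30821 CPM (0.12 ± 0.17, adjusted p = 0.598).

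The 4 members that fell were miR-381-3p, miR-299a-3p, miR-494-5p and miR-3071-5p, named after their values were seen. miR-381-3p went from 16480.1 and 13336 to 8574 and 9071 CPM (-0.76 ± 0.16, edgeR adjusted p = 0.00554), a call lost without induced library A (adjusted p = 0.0836). miR-299a-3p, from 1008 and 1132 to 649 and 617 CPM, lost its call without induced A (0.108) or B (0.112) and without the abundance filter (0.0655). For miR-494-5p the call was lost without any 1 library of the wild type, knockout or induced groups (adjusted p from 0.0526 to 0.204), with DESeq2 (0.119) and without the abundance filter (0.0724). miR-3071-5p, with 10 and 23 counts in the knockout lines and 14 and 7 in the deeper induced libraries, lost its call without knockout line 2 (-1.37, adjusted p = 0.117) or induced B (0.119) and with the 2 groups alone (0.0677). Its hairpin lies opposite that of miR-136, and the counting is not stated to use strand, so single values of this pair are uncertain.

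Positions of 75 tested members are given in RefSeq, from 109563744 to 109747949 on chromosome 12 (GRCm38.p6), a span of 184 kb. They fall into 2 blocks. The 24 members from miR-770-3p to miR-370-3p lie within the first 54.6 kb, and 12 of them rose and 1 fell, with a median log2 fold change of 0.98. The 51 from miR-379-5p to miR-3072-3p lie between 145 and 184 kb, and 27 of them rose and 3 fell, with a median of 1.42. Calls of 1 kind often came in runs. The 7 neighbours from miR-380-5p to miR-329-3p all rose, as did the 7 from miR-1193-3p to miR-667-3p, while the 5 from miR-337-5p to miR-665-3p and the 6 from miR-379-5p to miR-299b-5p were not called. Elsewhere neighbours differed: miR-431-5p and miR-433-3p (3.74 and 3.83) have miR-433-5p (0.10) within the same stretch. The arms of a hairpin are neighbours here and share their source, and whether the runs exceed chance was not tested. The difference between the blocks was not tested.

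**Figure D3:**
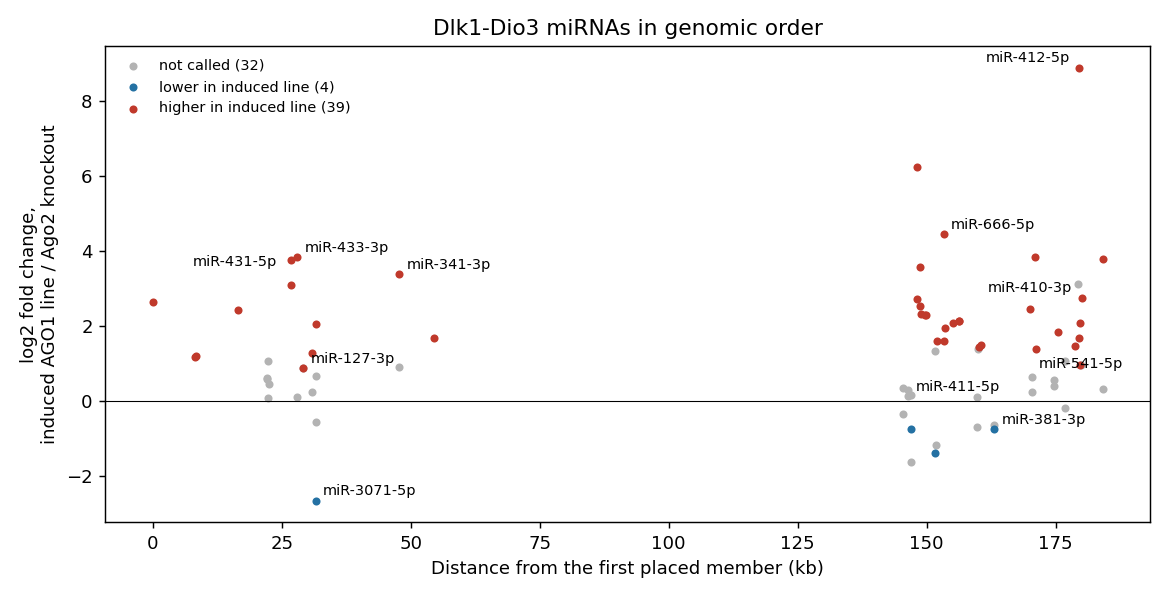
Log2 fold change of the induced AGO1 line over the knockout lines for 75 Dlk1-Dio3 miRNAs by distance in kb from the first placed member, red called higher (39), blue lower (4), grey not called (32). Both blocks hold rises beside uncalled members, and the 4 strands of miR-379 and miR-411, from 145 kb, lie between -0.34 and 0.35.

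miR-295-3p and miR-182-5p, among the most abundant miRNAs, were not called. miR-295-3p, from the miR-290-295 cluster, stood at 146463 and 133721 CPM in the knockout lines and 179555 and 154363 CPM after induction (0.25 ± 0.15, edgeR adjusted p = 0.215). miR-182-5p was at 104694 and 104504 CPM in the knockout lines and 129649 and 113304 CPM after induction (0.22 ± 0.14, adjusted p = 0.277), against 181993 and 171871 CPM in wild type. In its cluster, miR-183-96-182, 1 of 6 rose and 2 fell, and 0 were called without induced library A. Without induced B 0 fell. Of the 18 miR-290-295 products tested, 4 rose, a share near the 19.2% called higher over all tested, and 0 fell (median 0.27), but with library totals alone 3 were higher and 4 lower (median -0.12), 6 and 2 without knockout line 1, and 1 and 0 without induced library B. The rises were in miR-291a-5p (1.00 ± 0.20; lost without induced B, adjusted p = 0.0724), miR-293-3p (0.55 ± 0.16), and both arms of miR-291b, of which the 3p arm lost its call without knockout line 1 (0.125) or induced B (0.0798). miR-291b-5p went from 7.48 and 5.03 to 54.7 and 86.7 CPM, and miR-291b-3p had 0 counts in the knockout lines and 13 and 14 after induction, at least 2.48-fold higher. For miR-293-3p the call was lost without knockout line 2 (0.0836), uninduced A (0.0712) or B (0.0668), and induced A (0.132) or B (0.211), with library totals (0.317) and with the 2 groups alone (0.0734). miR-22-3p, an abundant miRNA of no list, rose from 40938 and 40319.5 CPM to 66671 and 70826 CPM (0.76 ± 0.13, adjusted p = 0.00156). Its uninduced values, 57196 and 61236 CPM, lay between these groups, and wild type stood at 40898 and 40919 CPM with the knockout.

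With TMM factors, falls were smaller in number and size than rises, but with library totals 117 were lower and 72 higher. miR-92a-1-5p, the 5p strand of a hairpin of the miR-17-92 cluster, fell from 15165 and 21863 CPM in the knockout lines to 7196 and 7448 CPM in the induced libraries (-1.34 ± 0.27, edgeR adjusted p = 0.00414). Wild type was lower again, at 4439 and 2456 CPM. miR-25-5p fell from 679 and 1082 to 244 and 321 CPM (-1.63 ± 0.35, adjusted p = 0.00579), with wild type at 125 and 58.5 CPM. miR-19a-5p fell from 77.3 and 166 to 29.1 and 20.9 CPM (-2.20 ± 0.42, adjusted p = 0.00315), and its induced values overlapped those of wild type, at 23.7 and 18.9 CPM. In each of the 3 the uninduced line stayed near or within the knockout values, for example 671 and 698 CPM of miR-25-5p.

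Of 26 products tested of the miR-17-92 cluster and its paralogs, known for driving proliferation, 6 fell and 1 rose (median -0.33). Over all tested, 10.7% were called lower and 19.2% higher. The 6 that fell were miR-92a-1-5p, miR-25-5p, miR-19a-5p, miR-19b-1-5p, miR-20b-5p and miR-20b-3p, and miR-18a-5p rose. Of the 6, miR-25-5p, miR-19a-5p and miR-20b-3p are the rarer strand of their hairpin in wild type, and miR-20b-5p is the main one. The other two share their 3p strand with a second hairpin and were not paired. miR-92a-1-5p, miR-25-5p and miR-19a-5p kept their call in each setting that gave a value. The other falls were each lost without either induced library, miR-20b-3p also without knockout line 2, and miR-19b-1-5p also thinned (edgeR adjusted p = 0.0930). Of 15 settings, miR-20b-5p kept its call in 12 and miR-20b-3p in 11. The rise of miR-18a-5p was lost without uninduced A or either induced library, with library totals, with the 2 groups alone and thinned (adjusted p from 0.0532 to 0.185). With library totals alone 0 were higher and 14 lower. miR-25-3p, the main strand of its hairpin, was at 19075 and 14468 CPM in the knockout lines and 14108 and 12939.9 CPM after induction, and was not called (-0.31 ± 0.18, edgeR adjusted p = 0.215).

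miR-142a-5p, typical of blood cells, fell from 1689 and 3249.7 to 829 and 755 CPM (-1.64 ± 0.32, edgeR adjusted p = 0.00399), above wild type at 265 and 454 CPM. miR-142a-3p fell from 342 and 543 to 171 and 142 CPM (-1.49 ± 0.35, adjusted p = 0.0100), a call lost without induced B (0.0801). miR-375-3p, typical of pancreatic islets, fell from 447 and 216 to 94.1 and 87.7 CPM (-1.89 ± 0.33, adjusted p = 0.00187) and stayed above wild type, at 45.1 and 40.5 CPM. miR-27b-5p fell from 549 and 895 to 200.1 and 141 CPM (-2.07 ± 0.35, adjusted p = 0.00158), and miR-135b-3p from 69.9 and 131 to 16.3 and 19.9 CPM (-2.40 ± 0.43, adjusted p = 0.00216). For both, the induced values overlapped those of wild type, at 237 and 127 CPM for miR-27b-5p and 22.5 and 15.3 CPM for miR-135b-3p. miR-21a-3p had a log2 fold change of -1.72, but the knockout lines were far apart, at 219.5 and 865 CPM, and the call was lost without knockout line 2 (-0.46, adjusted p = 0.235) and without induced A (0.0730) or B (0.0915), and with the 2 groups alone (0.0996).

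Other lists held falls and no rises, beside 10.7% called lower over all tested. The 1 of 8 in the miR-23, miR-27 and miR-24 clusters is near that share. In the miR-200 family, which keeps epithelial character, 4 of 8 fell (median -1.05), as miR-200c-3p did from 122 and 131 to 61.6 and 58.8 CPM (-1.06 ± 0.30, edgeR adjusted p = 0.0241). The list takes both arms, and its other falls were miR-141-3p and the arms rarer in wild type, miR-141-5p and miR-200a-5p. The count lower was 0 without either induced library, 1 without wild type A, 2 without wild type B or knockout line 1, and 6 without knockout line 2, and it was 7 with library totals and 2 thinned. For miR-200c-3p the call was lost without induced A (0.140) or B (0.146) and without the abundance filter (0.0598). Members of the miR-15 and miR-16 family are known as brakes on cell division, and 4 of its 12 fell (median -0.90). That count was 2 without wild type A or either uninduced library, 1 and 0 without induced A and B, and 7 with library totals. Of the 4 falls, miR-15b-3p and miR-16-2-3p are 3p strands. The family's common seed lies in 6 tested 5p strands, of which 2 fell (median -0.24). The main strand miR-16-5p overlapped between groups, at 25007 and 18829 CPM in the knockout lines and 25305 and 21820.0 CPM in the induced libraries (0.10 ± 0.17, adjusted p = 0.659). In the miR-26 and miR-101 families 3 of 7 fell (both arms of miR-101a, and miR-26a-2-3p), with 1 without either induced library and 2 without knockout line 1. Their median was -1.03, but 0.00 thinned, where 6 were tested and 2 fell. In the Sfmbt2 repeat cluster, a rodent array taken here by name prefix, 8 of 41 fell (median -0.71). That count was 19 without knockout line 1, 5 without line 2, 3 and 1 without induced A and B, 16 with library totals and 2 thinned, and near-identical copies make its single members uncertain. miR-467c-5p, its most abundant member, went from 791 and 1217 to 526 and 537 CPM (-0.91 ± 0.26, adjusted p = 0.0229), a call lost without knockout line 2 (0.0611) and induced A (0.120) or B (0.112), with the 2 groups alone (0.0579) and thinned (0.0593). In the miR-34 and miR-449 family, targets of p53, 2 of 6 fell (median -0.75, or 0.24 without knockout line 2), with 0 without either induced library or thinned, and 1 with DESeq2 or without wild type A or B, knockout line 1 or uninduced A. Single falls were also in the miR-302-367 cluster (miR-302d-5p, 1 of 5) and in the miR-23, miR-27 and miR-24 clusters (miR-27b-5p, 1 of 8). In the miR-302-367 cluster 0 fell with the DESeq2 test or thinned. The fall there was lost without knockout line 1 or induced B, and more fell without line 2. In the miR-23, miR-27 and miR-24 clusters 4 fell with library totals and 3 with DESeq2, and more were called, in both directions, without knockout line 2.

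**Figure D4:**
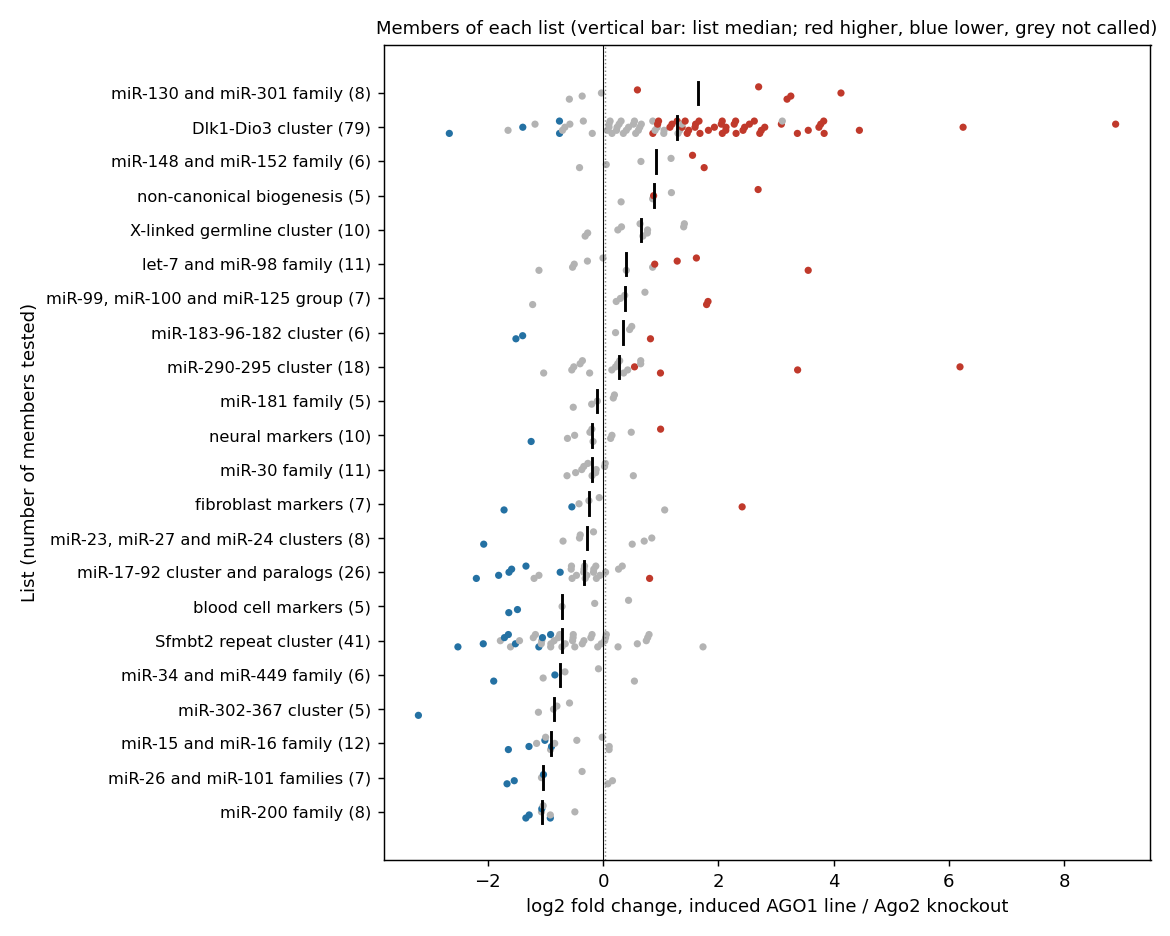
Each row is a list with its number of tested members, each point the log2 fold change of 1 member in the induced AGO1 line over the knockout lines, and the vertical bar the list's median; the dotted line is the median of all tested miRNAs, 0.03. The miR-130 and miR-301 family (1.65) and the Dlk1-Dio3 cluster (1.28) lie at the top, and the miR-200 family (-1.05) at the bottom; lists with fewer than 5 tested members are left out.

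Several lists held no call. They were the X-linked germline cluster (10 tested), the miR-30 family (11), the miR-181 family (5) and the slicer-dependent miRNAs (2). In the X-linked cluster this goes with a difference between the knockout lines. Its summed level was 993 CPM in knockout line 1 and 75.5 CPM in line 2, and the AGO1 line, made from line 1, held 1049 and 962 CPM without doxycycline and 888 and 829 CPM with it. Wild type held 268 and 273 CPM. Without knockout line 1, 5 of its members were called higher. miR-302d-3p, of a cluster active in primed stem cells, likewise stood at 227 and 40.2 CPM in the knockout lines and 85.5 and 71.8 CPM in the induced libraries, which lie between them. miR-2137, named after its values were seen, had 13 and 4139 counts in the knockout lines and 1551 and 1257 in the induced libraries (adjusted p = 0.215). With knockout line 2 left out, so that the AGO1 line met only the line it was made from, 161 were called, 99 higher and 62 lower, and 122 of the 142 were among them.

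Markers of other cell types did not move as 1 group. Of the tested markers, 2 of 5 fell and 0 rose for blood (1 fell without induced B), 1 rose and 2 fell of 7 for fibroblast, 1 rose and 1 fell of 10 for neural, and 1 of 3 fell for liver and endoderm, beside 19.2% higher and 10.7% lower over all tested. The fibroblast falls, both strands of miR-21a, were 0 without knockout line 2 (2 rose there) or either induced library and 1 without any other library. For neural, 0 were called without induced A or B, and without any other library but wild type A or B 0 rose. No muscle marker was tested, with 10 of 13 listed at 0 in all 8 libraries, miR-1a-3p and miR-206-3p among them. Both arms of miR-223 (blood) and of miR-122 (liver) were also at 0 in all 8. The summed level of the blood markers was 5850 and 6530 CPM in the knockout lines, 3809 and 3975 CPM in the induced libraries and 1906 and 1924 CPM in wild type. Fibroblast markers summed to 1946 and 2510 CPM in the knockout lines and 3113 and 2879 CPM in the induced libraries. The higher sum rests on miR-143-3p: without it the sums were 1594 and 2163 CPM in the knockout lines and 1172 and 1098 CPM in the induced libraries, lower after induction. Neural markers summed to 1340 and 1288 against 1327 and 1503 CPM, and liver and endoderm markers to 2814 and 2621 against 2744 and 2555 CPM. Their part in other results was not tested. No library of the 8 held a count of miR-451a, whose maturation needs AGO2 slicing. For miR-486a-5p, also on the slicer-dependent list, there were 9 and 14 counts in the knockout lines and 51 and 36 in the induced libraries (-0.05 ± 0.51, edgeR adjusted p = 0.939), and its reads are hard to tell from those of miR-486b-5p. Of 5 tested miRNAs of non-canonical biogenesis, 2 rose (0 without induced library B or thinned). miR-484, which bypasses Drosha, went from 958 and 1036 to 1508 and 2151 CPM (0.88 ± 0.26, adjusted p = 0.0265). That call was lost without induced B (0.262), with library totals (0.49, adjusted p = 0.144), with the 2 groups alone (0.0712) and thinned (0.0555). miR-1981-5p had 3 counts in the knockout lines and 73 after induction, a ratio of 6.72 with a 95% counting interval of 2.21 to 33.3, and its call was lost without knockout line 1 (0.133) or induced B (0.0569) and thinned (0.0897).

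Beside wild type, the called miRNAs lay on both sides. Among the 91 that rose, the induced mean was 97.6% of the wild type mean at the median, with a range of 21.3% to 601%, and the knockout mean was 24.3% at the median. Among the 51 that fell, the induced mean was 112% of wild type at the median (22.0% to 447%) and the knockout mean 290%. These members were chosen by the induced and knockout values, so the percentages describe them and are not tested. Among the falls, miR-101a-5p stood at 115 and 95.6 CPM in the knockout lines and 114 and 119 CPM in wild type, but at 28.2 and 38.9 CPM in the induced libraries. Its uninduced values, 46.6 and 39.7 CPM, were also below the knockout. miR-15b-3p, too, was lowest in the AGO1 line: 77.3 and 131 CPM in the knockout lines, 125 and 125 CPM in wild type, 35.9 and 27.9 CPM in the induced and 35.9 and 52.9 CPM in the uninduced libraries. Those calls were lost without induced A (miR-101a-5p, adjusted p = 0.0566) and induced B (miR-15b-3p, 0.0738).

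Strands were compared by their standing in wild type. Of 137 tested miRNAs that are the rarer arm of their hairpin in wild type, 17 rose and 18 fell (median -0.16), and of 256 that are the main arm, 67 rose and 21 fell (median 0.21). The 82 without an arm pair had 7 rises and 12 falls (median -0.51). With library totals alone, these became 12 and 35 for the rarer arm, 56 and 60 for the main arm, and 4 and 22 for those without a pair. Over all tested, 19.2% were called higher and 10.7% lower. The groups differ in abundance, and the Dlk1-Dio3 cluster gave 41 of the 91 rises. The part of either in these counts was not tested.

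The ratio of the 5p to the 3p strand within a hairpin is free of library scaling, since both strands share it, and was tested in 139 hairpins. It differed in 14 (10.1%), toward 5p in 6 and toward 3p in 8, by edgeR's quasi-likelihood test with arm by group as the effect. The 5p share of miR-666 counts was 51.4% (18 of 35 counts) and 30.0% (9 of 30) in knockout lines 1 and 2, and 83.8% and 81.2% in the induced libraries, beside 79.3% and 66.6% in wild type (log2 shift 2.74, adjusted p = 0.00855). miR-96 moved from 77.4% and 66.9% to 90.8% and 91.0% (1.91, adjusted p = 0.00209), with 92.1% and 92.7% in wild type. miR-433 moved the other way, from 16.9% and 23.1% (10 and 3 counts of the 5p strand) to 2.04% and 1.44% (-3.65, adjusted p = 0.00191), but the uninduced line already stood at 0.893% and 2.33%. miR-434, an abundant hairpin, moved from 22.2% in both knockout lines to 12.7% and 11.5% (-1.05, adjusted p = 0.00855), with wild type at 9.37% and 8.85%, while the uninduced line held 24.0% and 24.1%. miR-19a moved from 14.4% and 31.4% to 6.64% and 5.60% (-2.01, adjusted p = 0.0139), with wild type at 4.07% and 3.81%. The largest shift, of miR-3071 (-4.55, adjusted p = 0.00238), rests on 13 and 25 counts of both arms in the knockout lines, and its strand opposite miR-136 leaves the counts uncertain.

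For 2 hairpins the induced share lay farther from wild type than the knockout shares did. miR-30a stood at 57.3% and 55.2% 5p in wild type, 28.3% and 35.1% in the knockout lines, and 17.9% and 16.3% after induction (-1.13, edgeR adjusted p = 0.0198). miR-369 stood at 41.5% and 39.9% in wild type, 42.3% and 51.7% in the knockout lines, and 63.5% and 67.5% after induction (1.16, adjusted p = 0.0198). These hairpins and miR-434 were named after their values were seen. Without induced A or B, the calls of miR-30a (adjusted p = 0.0842 and 0.147), miR-369 (0.0660 and 0.147) and miR-434 (0.0559 and 0.115) were lost. miR-30a also lost it without knockout line 2 (0.0842) and miR-369 without knockout line 1 (0.236). The arm calls are few in other settings: 9 with at least 20 counts in every library, 3 with limma on the log2 ratio, 8 without knockout line 2, and 3 without either induced library. miR-96, miR-433 and miR-3071 were the named hairpins that kept their call in each setting that gave a value. The shift of miR-666 was lost without knockout line 2 (2.15, adjusted p = 0.0600) and without induced A (0.0660) or B (0.0770), and that of miR-19a without the same libraries (0.0627, 0.0842 and 0.147).

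**Figure D5:**
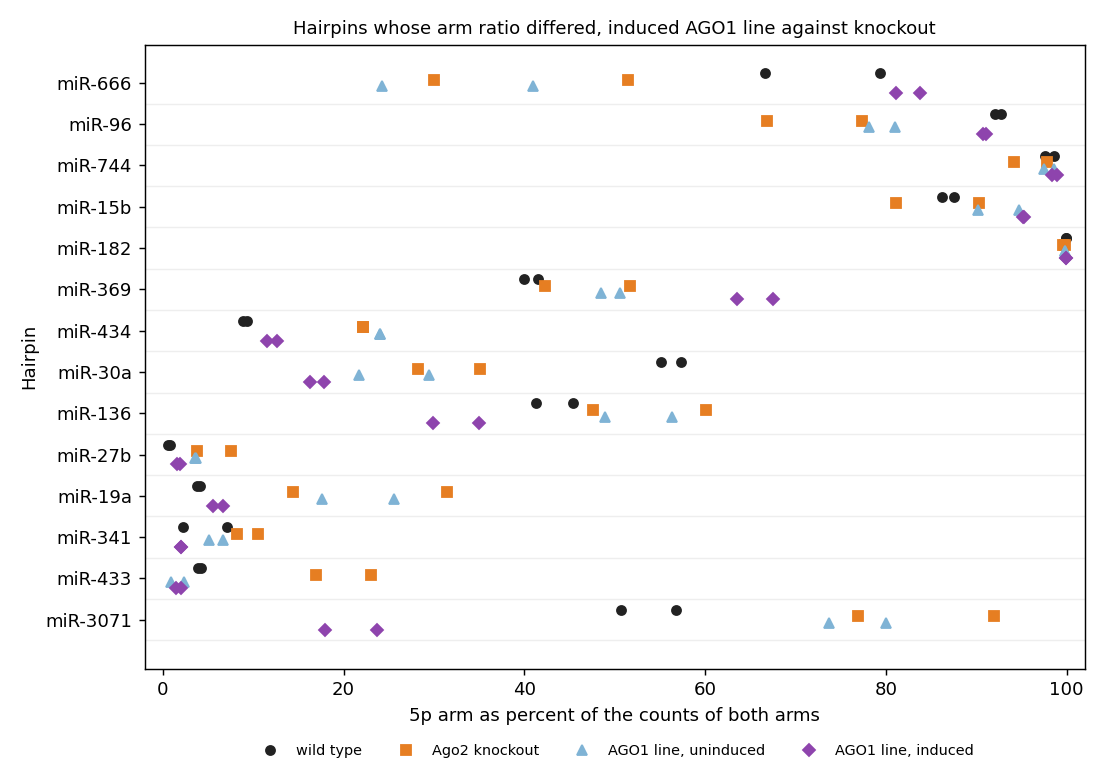
The 5p strand as a percent of the counts of both arms in each library, for the 14 hairpins whose arm ratio differed between the induced AGO1 line and the knockout lines (edgeR). Induced libraries (diamonds) lie beside wild type (circles) for miR-96, miR-434 and miR-19a, and beyond the knockout lines (squares), away from wild type, for miR-30a and miR-369.

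RefSeq gave a mature sequence for 384 of the 475 tested miRNAs, of which 82 rose and 38 fell. By first base, 24 of 116 with A rose and 13 fell, 16 of 78 with C rose and 10 fell, 12 of 42 with G rose and 2 fell, and 30 of 148 with U rose and 13 fell. By base composition, in the group richest in G and C (57.1% of bases or more) 31 of 94 rose and 2 fell, with a median log2 fold change of 0.67. In the group poorest in G and C (40.9% or less) 18 of 109 rose and 17 fell, with a median of -0.12. Of the rises printed above, miR-666-5p and miR-298-5p belong to the rich group, while miR-301a-3p and miR-410-3p belong to the poor group. Members of a cluster or family share sequence and locus, the depth of the knockout libraries is lower, and the part of either in these counts was not tested.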

How the data were processed

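Small RNA was extracted with Trizol and made into libraries from 1 µg of total RNA with a TruSeq small RNA kit, per the labels' protocols. Reads were aligned with Bowtie to mm10, per the submitters' processing notes. The deposited values are whole read counts per mature miRNA, made by the authors. How reads were trimmed, how mismatches and multiple matches were treated, and which strand rule and annotation release applied is not given in the sources used here. A second header line of names was dropped.

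Counts of all 8 libraries (4 groups of 2) were fitted with edgeR 4.0.16 in R 4.3.3 (filterByExpr, TMM, quasi-likelihood F test with 4 residual degrees of freedom, Benjamini-Hochberg over 475 miRNAs, call at an adjusted p under 0.05). SEs are approximate, from the fold change and its F value. The common biological coefficient of variation was 0.244. Arm ratios were tested as arm by group with a library term in hairpins with at least 10 counts of both arms together in every library. Floors are 3 counts, and intervals of count ratios are exact at 95%; both cover counting error only. On simulated data with the same library sizes, the main test called 46 of 102 miRNAs changed 2-fold, 85 of 93 changed 4-fold and 2 of 256 unchanged. The arm test called 24 of 37 hairpins changed 4-fold and 0 of 112 unchanged. In the real data the knockout lines lay farther apart than the induced libraries (median absolute log2 difference 0.49 against 0.20). Error rates of either test under such an unequal spread were not tested.

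Members and lists were chosen with earlier results of these data known, so no list is independent evidence of its direction. Named miRNAs were the 12 largest rises and falls among calls with a mean of at least 20 CPM and groups that did not overlap. Also named were the 8 most abundant, each list's most abundant and best-supported members, and those an earlier account names. Others were named after their values were seen. Alternatives were another scaling (DESeq2 size factors, library totals), DESeq2 1.42.0, limma 3.58.1 for arm ratios, other filters, only the 2 groups compared, and each library left out. Thinning all libraries to the smallest total was chosen after seeing the data, as were list counts without single libraries. Sequences and positions are from RefSeq (GRCm38.p6), and 384 of 475 names matched.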

Additional observations from a re-analysis of the deposited data

How the results depend on the processing

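The induced line against the knockout lines gave 87 calls with all libraries thinned to the smallest total, where fewer miRNAs were tested (325), and 70 to 174 when any 1 of the 8 libraries was left out (70 without induced B, 86 without induced A). Other settings gave 108 to 189. None of the 142 calls reversed its direction in them. The uninduced line against the knockout lines gave 2 calls with library totals, 15 with DESeq2 and 14 without the abundance filter, and 0 to 61 with 1 library left out. Its value for miR-21a-3p, -0.31 with all libraries, was -1.01 without knockout line 1 and reversed to 0.94 without line 2 (adjusted p = 0.0347). Induced against uninduced gave 68 calls thinned and 57 to 200 with 1 library left out. Induced against wild type gave 98 and 75 to 258. The arm ratio gave 9 calls with at least 20 counts in every library, 3 with limma and 3 to 18 with 1 library left out. Beyond leaving out libraries, thinning and tool, the cause of these differences was not tested. With 1 library of a group left, that library was assumed to vary like the other groups. No paired analysis was possible because the knockout libraries carry line numbers and the induced ones letters. Between lettered groups, the letter as a replicate block gave 192 calls for induced against uninduced (202 from the same 6 libraries without it) and 250 for induced against wild type (256). Same-lettered libraries did not deviate together in every pair of groups (Pearson r of the difference between A and B across 385 miRNAs, which are not independent replicates: 0.157, -0.052 and 0.276). Depth of the knockout libraries limits low miRNAs: a count of 0 allows up to 15.1 CPM in line 2.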

Other observations

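Of the 164 tested miRNAs that belong to no list, 24 rose and 10 fell in the induced AGO1 line against the knockout lines (median log2 fold change -0.04). Over all tested, 19.2% were called higher and 10.7% lower. Those named here, all but miR-324-5p after their values were seen, kept their call in every setting that gave a value. miR-186-5p rose from 324 and 362 CPM in the knockout lines to 1514 and 1391 CPM in the induced libraries (2.08 ± 0.19, edgeR adjusted p = 1.86e-05), with wild type at 3551 and 3298 CPM. miR-351-5p rose from 434 and 282 to 1470.3 and 1206 CPM (1.89 ± 0.29, adjusted p = 0.00102), with wild type at 701 and 458 CPM. The abundant miR-191-5p rose from 16589.9 and 16093 to 28778 and 28932 CPM (0.82 ± 0.14, adjusted p = 0.00158). miR-184-3p had 8 and 1 counts in the knockout lines and stood at 180.5 and 116 CPM after induction (3.33 ± 0.55, adjusted p = 0.00138). miR-324-5p had 1 count in each knockout line, and its induced level was higher by a ratio of 12.8 with a 95% counting interval of 3.45 to 108.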
